A study of Arabidopsis thaliana with 111 samples.

Results

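The 100 genes described here are those whose level in Arabidopsis cotyledons 31 h after sowing stood furthest above every other dissected part of the germinating seed and above dry seed. They were chosen by a score per gene, the mean log2 value of cotyledons at 31 h minus the highest mean among the 25 groups of dry seed, endosperm and embryonic axis, and the 100 highest of 21313 genes were taken. The score was 4.13 for the first gene, 2.21 at the median and 1.90 for the last. Since the values of cotyledons at 31 h and of all the other parts made the choice, differences between them are given below as descriptions without a test.

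Seeds of accession Columbia-0 with no transgene or treatment named in the labels were sown on water agarose in continuous light at 22 °C and dissected under a microscope. Cotyledons (COT) were taken at 3, 16 and 31 h, the endosperm other than its ends (PE) at 3 and 16 h, and both the pooled micropylar and chalazal endosperm (MCE) and the radicle with the embryonic axis (RAD) at 11 stages. Those stages were 1, 3, 7, 12, 16, 20, 25, 31 and 38 h. At 25 h seeds with an intact and with a ruptured testa were sampled apart, and at 38 h those with an intact and with a ruptured endosperm. Whole dry seeds were also measured. There were 4 arrays per group and 3 for PE at 3 h. For 3 MCE arrays the labels disagree on the time, and without them 99 of the 100 genes were chosen again. Each array gave 1 log2 value per gene, so a difference of 1 is a doubling. Cotyledons were not sampled after 31 h, and 48 of the 100 genes met their highest level outside cotyledons at 38 h.

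The cotyledons are the seed leaves. In the seed of Arabidopsis they hold stored oil and protein and small undifferentiated plastids, and after germination they turn green and become the first photosynthetic organs. Greening calls first for the machinery that reads and translates the plastid's own genes, then for chlorophyll, and then for the proteins that bind chlorophyll and fix carbon. At the same time the flat blade keeps an upper and a lower side, its epidermis makes stomata, and its veins mature into working phloem.

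The label of cotyledons was checked against lists of marker genes. A list of cotyledon and leaf regulators, 5 of whose 22 measured genes are among the 100, averaged 6.43 to 6.60 per array in COT at 31 h, against 4.52 to 4.65 in RAD and 4.61 to 4.71 in MCE at 31 h. The rule fixed part of that difference, and without those 5 genes the other 17 averaged 5.92 to 6.07 in COT, against 4.80 to 4.89 in RAD and 4.64 to 4.71 in MCE. All 22 averaged 4.94 to 5.17 in COT at 3 h, against 4.75 to 4.91 in dry seed and 4.17 to 4.23 in PE at 3 h. A list of 3 endosperm genes averaged 4.60 to 4.88 in COT at 31 h, against 11.89 to 12.19 in MCE at 31 h. In COT this endosperm list was higher earlier, at 5.47 to 6.02 at 3 h and 5.28 to 5.87 at 16 h. PE had 7.63 to 8.04 and 12.85 to 12.98 at those times. Its part in the differences between the COT stages was not tested. A list of 16 root genes averaged 4.2 to 4.28 in COT at 31 h, against 5.89 to 5.95 in RAD at 31 h, and 9 of the 16 lay below the floor of dim genes (a log2 value of 4.03) in COT. Within COT that root list averaged 3.66 to 3.76 at 3 h, 3.87 to 4.02 at 16 h and 4.2 to 4.28 at 31 h, and its part in the differences between the stages was not tested. Root genes above the floor in COT at 31 h included PIN2 at 6.84 and MYB66 at 6.07, against 10.09 and 9.01 in RAD at 31 h. A list of 4 seed coat genes averaged 4.28 to 4.61 in COT at 31 h, against 4.54 to 4.83 in MCE and 4.71 to 4.74 in RAD. In each of these 2 of the 4 lay below the floor, so this list does not tell the parts apart. Arrays of a COT group correlated at 0.9867 to 0.9966 over all genes. In bulk samples such as these, fewer cells of a type and less RNA per cell cannot be told apart.

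The 100 genes were highest in cotyledons, and most were not silent elsewhere. In all of them the lowest of the 4 COT arrays at 31 h lay above each of the 99 arrays of other parts and dry seed, as the rule favours, and the smallest such gap was 0.88, for DFR. Yet 86 of the 100 had a group mean above the floor in some other part, and 14 stayed below the floor in every other group. By its definition only 25% of all genes lie below the floor in every group, so nothing is read from the 86. Of the 100, 20 reached a log2 value of 8 in another part, and the share of all genes that did was not counted. The highest other mean was in RAD for 43 genes, in MCE for 39, in PE for 14 and in dry seed for 4. The shares of all genes by part were not counted. RAD and MCE also had more groups than PE and dry seed, so nothing is read from those counts. In MCE at 38 h it was for 37 genes, beside 11.7% of all genes. The median gene measured 4.66 in COT at 3 h, 7.37 at 16 h and 8.27 at 31 h. At 31 h this compared with medians of 4.80 in MCE and 5.37 in RAD.

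The earlier COT groups were set beside the other parts as well. In COT at 16 h 87 of the 100 already had a mean above every group of the other parts, beside 6.28% of all genes. In COT at 3 h 14 of the 100 did, near the 9.1% of all genes. The rule used the means of those other groups, so both counts are partly fixed by the choice. Nothing is read from them. For 7 genes the mean at 16 h was at or above that at 31 h.

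**Figure D1:**
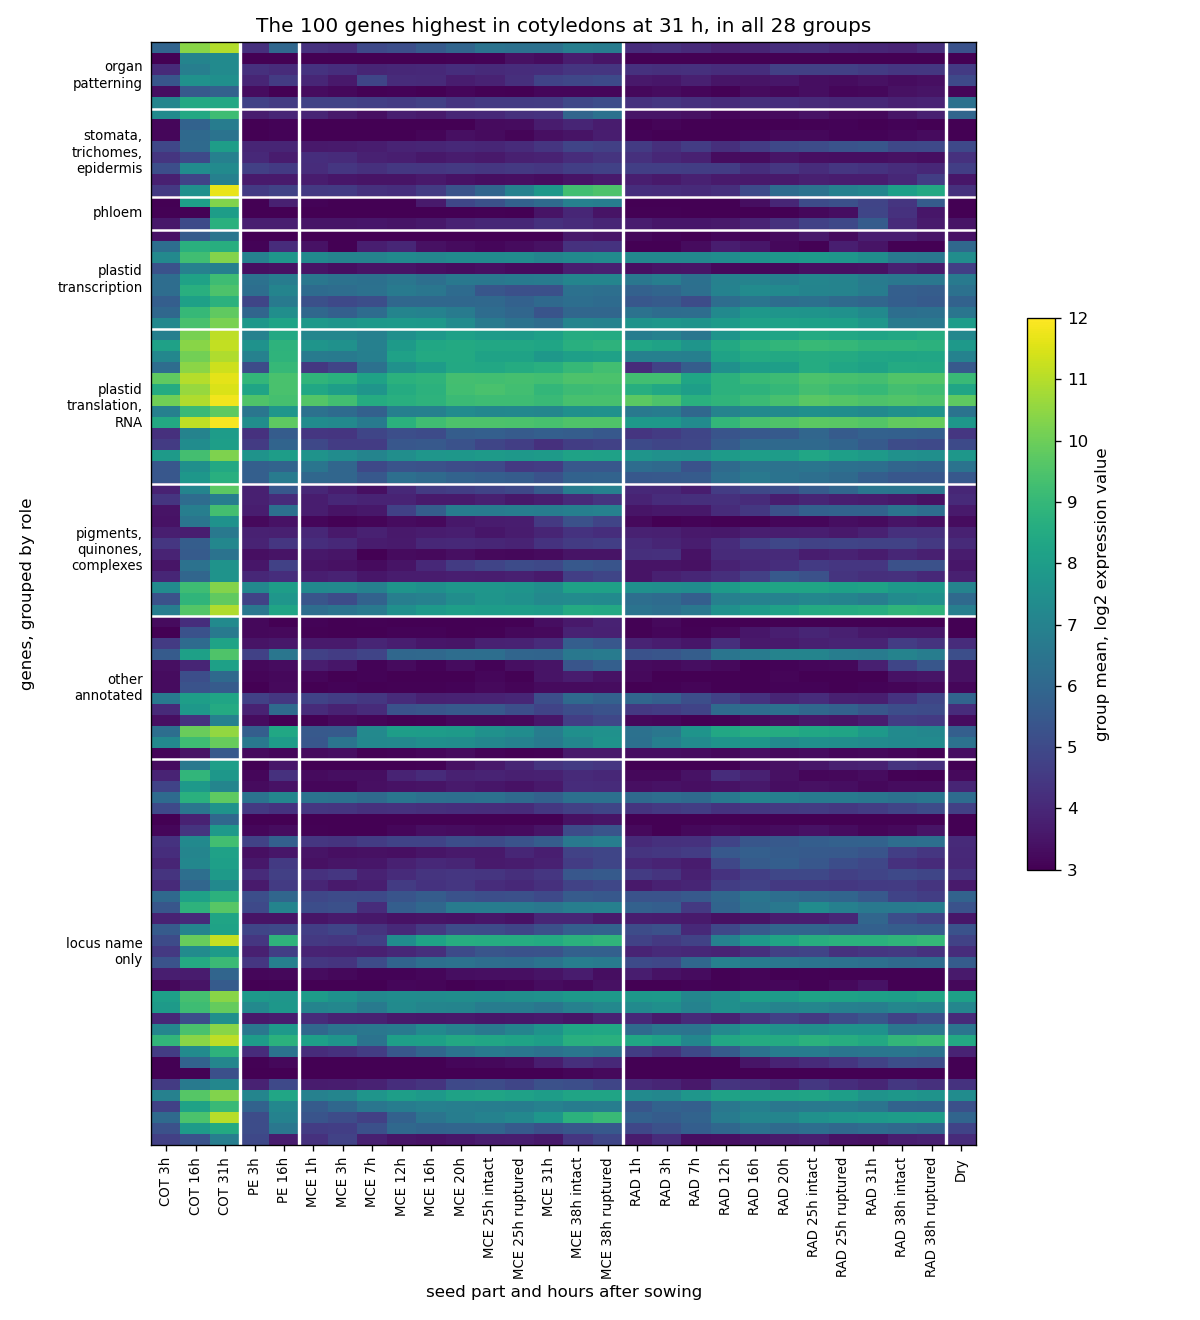
Mean log2 value (colour) of each of the 100 genes (rows, by role) in all 28 groups (columns, with COT at the left and dry seed at the right; intact and ruptured refer to the testa at 25 h and the endosperm at 38 h). The COT columns brighten from 3 h to 31 h in each block, and the plastid translation block is the brightest outside COT.

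The 1 comparison that the rule did not use is COT at 16 h against COT at 3 h. In it 86 of the 100 genes rose and none fell by the limma fit over all genes, called at a Benjamini-Hochberg adjusted p under 0.05 and a difference of at least 1, and none of the 100 was lower at an unadjusted p under 0.05. Of all 21313 genes, 17.8% were called higher, 13.1% lower and 30.8% in either direction. The median difference was 2.18 over the 100 genes, with a range of -0.08 to 5.18, beside -0.118 over all genes, and in 93 of the 100 the 4 arrays at 16 h lay above all 4 at 3 h. The rule bounds the level of these genes in dry seed and in the other parts at 3 h, though not in COT at 3 h, so the count does not stand free of the choice. A shift of every array to a common trimmed mean moved the median of all genes to -0.323 and that of the 100 genes to 1.97, with 81 called higher and none lower. Over all genes, 3789 were called higher and 2786 lower as deposited, but 3195 and 3364 after that shift. The 17.8% and 13.1% given here and below are those of the values as deposited.

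The later interval and the other parts were used by the rule, and nothing is read from their counts. From 16 h to 31 h the median difference of the 100 genes was 0.95, with 46 past the threshold upward and 1 downward, beside 6.99% and 4.23% of all genes. Against RAD the 100 genes differed by a median of 0.22 at 3 h, 1.68 at 16 h and 2.95 at 31 h. The genes past the threshold upward numbered 8 at 3 h, 89 at 16 h and 100 at 31 h, beside 1.85%, 6.12% and 8.3% of all genes, and 1 was past it downward at 3 h, beside 2.86%. Downward there were 0 at 16 h and 0 at 31 h, beside 5.11% and 7.14%.

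How much of the log2 difference between 31 h and 3 h was present at 16 h set the genes apart from each other. These percents count doublings and are not shares of the transcript level, which were not computed. The median was 69.8%. In 17 genes it was under 33%, in 8 it was 90% or more, and 75 lay between. By role, the median was 91.6% for organ patterning, 75.1% for plastid transcription and its regulators, and 74.8% for plastid translation and RNA processing. It was 65.3% for pigments and photosynthetic complexes, 50.8% for stomata, trichomes and epidermis, and 27.7% for the 3 genes of phloem and sugar transport. The roles were given to the 65 genes with a symbol from general knowledge after the genes were known, so this order is a description.

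**Figure D2:**
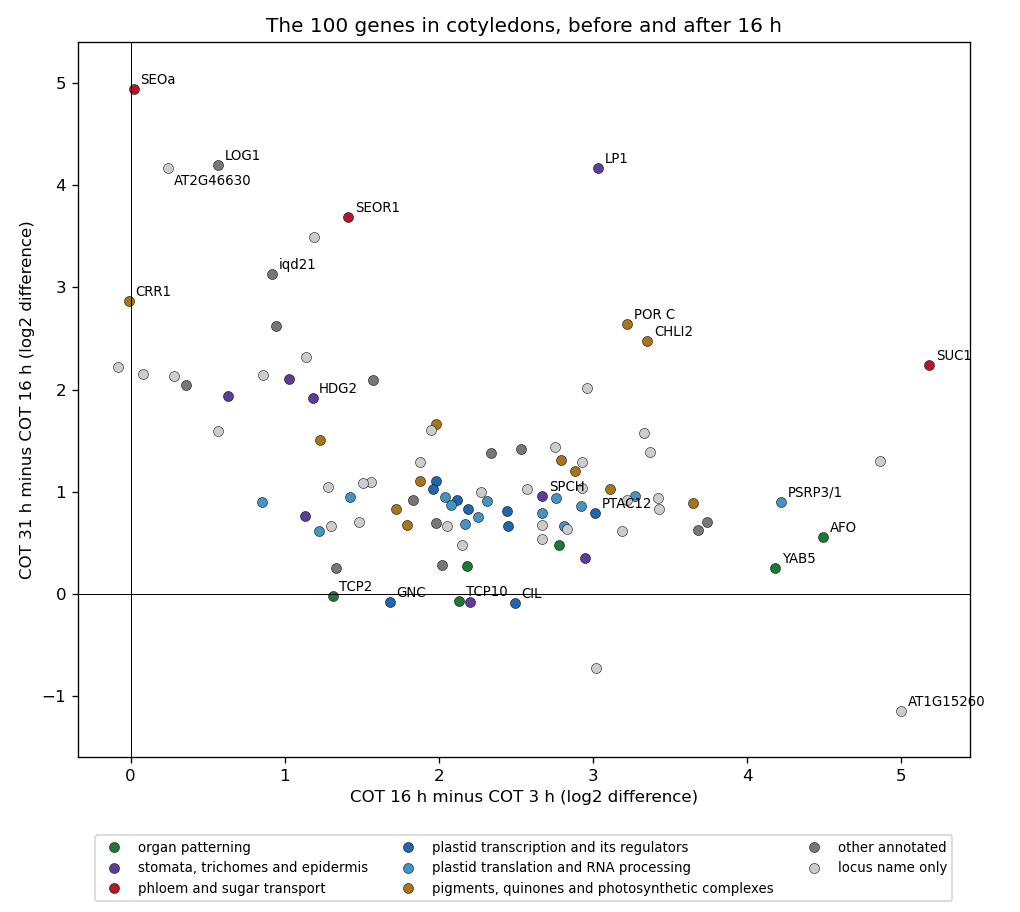
Each point is 1 of the 100 genes, with its log2 difference between COT at 16 h and 3 h on the horizontal axis and between COT at 31 h and 16 h on the vertical axis, coloured by role. AFO, YAB5 and PSRP3/1 lie at the lower right (early), SEOa, LOG1 and CRR1 at the upper left (late), and SUC1 and LP1 lie to the upper right.

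The genes that set up the form of the leaf were the earliest by their median. All 6 rose by 16 h, by 1.31 to 4.49, and their median was 4.73 at 3 h, 7.30 at 16 h and 7.39 at 31 h. The gene with the highest score of all was AFO (AT2G45190), better known as FILAMENTOUS FLOWER, a YABBY transcription factor that marks the lower side of leaves. Its 4 COT arrays read 5.96, 5.50, 5.91 and 6.29 at 3 h, 10.41, 10.52, 10.18 and 10.51 at 16 h, and 10.88, 10.91, 11.03 and 11.05 at 31 h. The arrays of 16 h and 3 h did not overlap, and AFO rose by 4.49 ± 0.18 (SE, adjusted p = 1.41e-40 by limma). Its highest other level was 6.84, in MCE at 38 h before rupture, and RAD at 31 h had 3.98.

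YAB5 (AT2G26580), another YABBY factor, was second by score and near the bottom of the scale everywhere but in cotyledons. It read 2.90, 2.58, 2.93 and 3.15 in COT at 3 h, 7.20, 7.09, 6.82 and 7.16 at 16 h, and 7.29, 7.33, 7.22 and 7.45 at 31 h. All of the difference of 4.18 ± 0.13 between 16 h and 3 h lies between arrays that do not overlap (adjusted p = 6.22e-50), while the arrays of 31 h and 16 h nearly meet. Its highest mean elsewhere was 3.71, below the floor.

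AS2 (AT1G65620), which works with AS1 to keep meristem genes off in leaves and to form the upper side, rose by 2.78 ± 0.14 to a mean of 6.84 at 16 h, against 4.06 at 3 h. ANT (AT4G37750), a transcription factor that prolongs cell division in growing organs, rose by 2.18 ± 0.15 to 5.51, against 3.32 at 3 h. TCP10 (AT2G31070) and TCP2 (AT4G18390) belong to the miR319-targeted TCP factors that end cell division in the leaf blade. TCP10 rose by 2.13 ± 0.14 to 7.54, against 5.41, and was at 7.47 at 31 h. TCP2 was already at 7.11 at 3 h, rose by 1.31 ± 0.13 to 8.42 at 16 h, and was at 8.40 at 31 h.

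In the wider list of cotyledon and leaf regulators, 17 of 22 measured genes rose in COT between 3 h and 16 h and none fell. Of all genes 17.8% rose and 13.1% fell, and the median difference of the list was 1.47. Of the 17 genes of that list outside the 100, 12 rose. Between 16 h and 31 h 1 of the 22 was called higher and 2 lower, beside 6.99% and 4.23% of all genes, and the median was -0.06. Nothing is read from these small counts. The 2 called lower were the boundary genes CUC2 and CUC1, which mark the edges between organs. CUC2 had 3.12 at 3 h, 5.30 at 16 h and 3.56 at 31 h, and CUC1 had 3.10, 4.37 and 2.99. YAB3, the closest relative of AFO, is not among the 100, because dry seed held 7.81 beside 9.40 in COT at 31 h. Of the list's genes outside the 100 it had the largest difference between COT and RAD at 31 h, 5.95 ± 0.18.

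**Figure D3:**
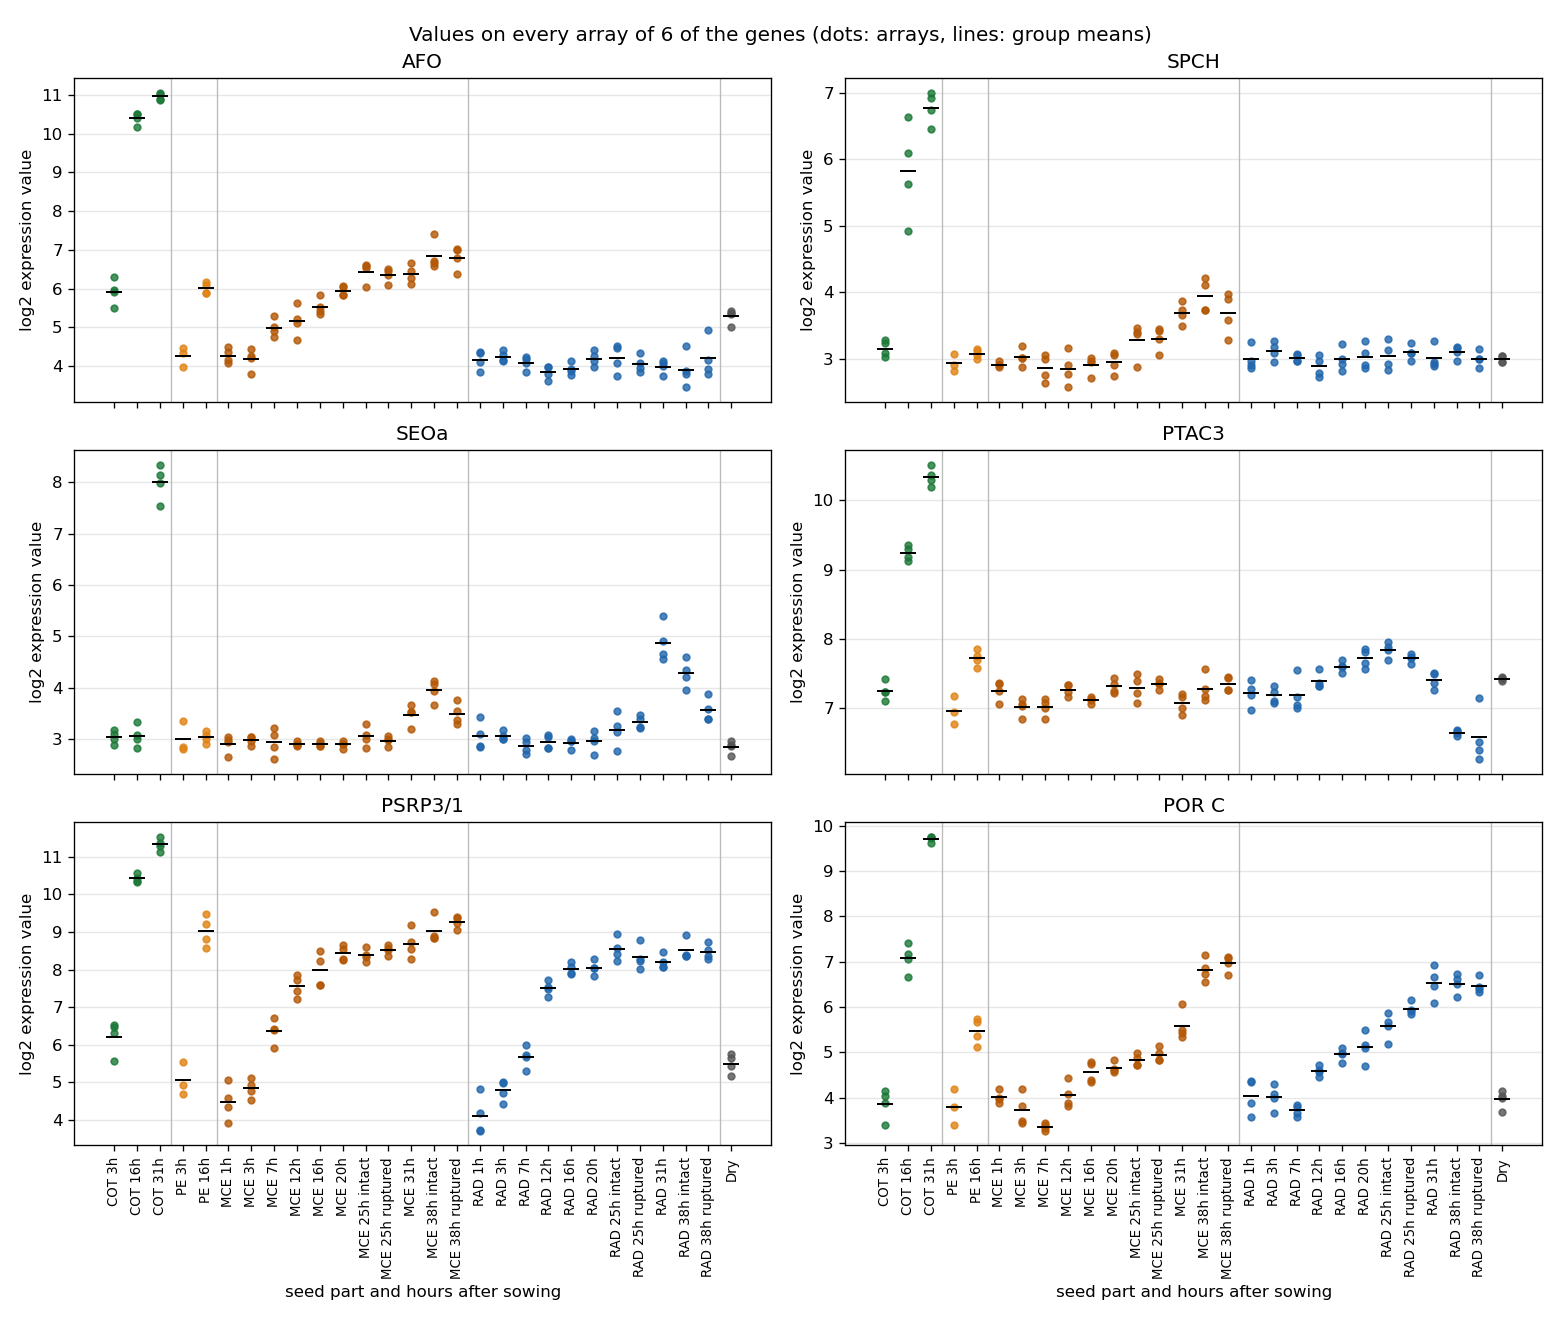
Log2 values of 6 of the 100 genes on every array (dots, coloured by seed part) with the group means (lines), over all 28 groups along the horizontal axis. In each panel the 4 COT arrays at 31 h lie above every array of the other parts and dry seed. For SPCH the COT arrays of 31 h and 16 h overlap. AFO, PTAC3 and PSRP3/1 are mostly up by 16 h, while SEOa reads about the same at 3 h and 16 h.

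The epidermis was represented by genes of the stomatal lineage. Stomata arise from protodermal cells that divide asymmetrically, and SPCH (AT5G53210) is the transcription factor that starts these divisions. In COT it read 3.28, 3.02, 3.23 and 3.08 at 3 h, 5.63, 6.10, 4.92 and 6.64 at 16 h, and 6.75, 7.00, 6.46 and 6.92 at 31 h. The arrays at 16 h were spread over more than those of the other times but all lay above 3 h, and the difference was 2.67 ± 0.15 (adjusted p = 1.34e-29). RAD at 31 h had 3.00, and the highest other mean was 3.94, in MCE at 38 h before rupture.

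EPF2 (AT1G34245), the peptide that early lineage cells secrete to hold back their neighbours, followed the same course. Its arrays read 3.04, 3.13, 3.25 and 3.16 at 3 h, 6.33, 6.24, 5.89 and 5.91 at 16 h, and 6.05, 6.59, 6.52 and 6.62 at 31 h, and it rose by 2.95 ± 0.11 between 3 h and 16 h (adjusted p = 1.07e-41). STOMAGEN (AT4G12970), the peptide from the inner leaf tissue that promotes stomata, was already at 7.31 in COT at 3 h. It rose by 1.13 ± 0.18 to 8.44 at 16 h, a call that was lost (0.923) when arrays were shifted to a common trimmed mean, and had 9.20 at 31 h, when RAD had 3.18.

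HDG2 (AT1G05230), a homeodomain factor of the epidermis and of late lineage cells, differed more after 16 h than before. It had 4.92 at 3 h, 6.11 at 16 h and 8.02 at 31 h, and its rise of 1.18 ± 0.17 by 16 h passed the threshold as deposited but not after a repeated quantile normalization (0.854) or the trimmed mean shift (0.978). Of the stomatal list of 17 genes, 7 rose between 3 h and 16 h and none fell, beside 17.8% and 13.1% of all genes. The 4 members had to be higher in COT at 31 h by the rule. Of the other 13 genes of the list, 9 were past the threshold upward against RAD at 31 h and 1 downward, beside 8.3% and 7.14% of all genes, and 9 had a COT mean above every other part, beside 7.66%. TMM, the receptor-like protein of the lineage, peaked at 16 h, with 3.82, 6.99 and 5.98 at 3, 16 and 31 h, while BASL and POLAR, which polarise the dividing cell, had 4.46 and 3.02 at 16 h and 5.91 and 4.65 at 31 h. The gene lower in COT was FLP, which limits the last division of the lineage, at 4.35 in COT and 6.80 in RAD at 31 h.

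Other surface genes were among the 100. GIS (AT3G58070) and ZFP8 (AT2G41940) are zinc finger factors that promote the formation of trichomes, the hairs of the shoot. GIS rose by 2.2 ± 0.17 to 7.38 at 16 h, against 5.18 at 3 h, and had 7.30 at 31 h. ZFP8 differed by 0.63 ± 0.18 between 16 h and 3 h, short of the minimum of 1, and had 6.94 at 31 h, against 5.0 at 16 h.

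LP1 (AT2G38540), the lipid transfer protein LTP1 of epidermal walls, reached one of the highest levels of the 100. It read 4.2, 4.83, 4.52 and 4.43 at 3 h, 7.82, 7.96, 6.69 and 7.64 at 16 h, and 11.79, 11.70, 11.78 and 11.50 at 31 h, so the 3 times did not overlap. The rise by 16 h was 3.03 ± 0.22 (adjusted p = 5.45e-23), and a further 4.17 separated 31 h from 16 h. It was not silent elsewhere, with 9.48 in MCE at 38 h after rupture and 7.10 in RAD at 31 h. LTP6 (AT3G08770) had 3.79, 4.82 and 6.93 at the 3 times, and its difference of 1.03 ± 0.17 by 16 h fell under the minimum without COT 3 h replicate 4 (0.870), without replicate 2 of that group, which was 1 of the redone arrays (0.992), and after the trimmed mean shift (0.828). Of 29 epidermis and cuticle genes listed, LP1 was the only one among the 100. Of the other 28, 1 was past the threshold upward against RAD at 31 h and 2 downward, beside 8.3% and 7.14% of all genes, so nothing is read from these counts. Of all 29, 14 rose and 3 fell in COT between 3 h and 16 h, beside 17.8% and 13.1% of all genes. Without LP1, 13 of the 28 rose.

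The 3 genes of phloem and sugar transport were the latest role by their median, which is the value of SEOR1. SUC1 was not late on the log2 scale, with 69.8% of its log2 difference between 31 h and 3 h present at 16 h. SEOa (AT3G01670) and SEOR1 (AT3G01680) encode the filament proteins that form the plugs of sieve elements, the conducting cells of the phloem. They are direct neighbours in the gene order, the only such pair among the 100. SEOa read 3.09, 2.88, 3.18 and 3.00 in COT at 3 h, 3.33, 3.07, 3.00 and 2.83 at 16 h, and 7.53, 8.34, 8.15 and 7.99 at 31 h. The arrays of 16 h and 3 h overlap throughout, with a difference of 0.02 ± 0.14 (adjusted p = 0.908), and the 31 h mean was 4.94 higher than that of 16 h.

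SEOR1 moved in the same direction but began earlier. It read 3.48, 3.72, 3.66 and 3.52 at 3 h, 4.92, 4.82, 5.24 and 5.06 at 16 h, and 8.68, 8.66, 8.87 and 8.60 at 31 h. It rose by 1.41 ± 0.13 by 16 h (adjusted p = 4.98e-17), with no overlap, and 3.69 more separated 31 h from 16 h. Outside cotyledons both had their highest mean in RAD at 31 h, 4.88 for SEOa and 5.61 for SEOR1.

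SUC1 (AT1G71880), a sucrose and proton symporter of the plasma membrane, had the largest rise of the 100 by 16 h. Its arrays read 2.76, 2.87, 3.35 and 2.62 at 3 h, 8.27, 8.18, 7.57 and 8.27 at 16 h, and 10.55, 10.14, 10.24 and 10.31 at 31 h. No array of 1 time reached into another, and the difference between 16 h and 3 h was 5.18 ± 0.20 (adjusted p = 1.52e-42). Its highest other mean was 6.91, in MCE at 38 h before rupture, and RAD at 31 h had 4.86.

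**Figure D4:**
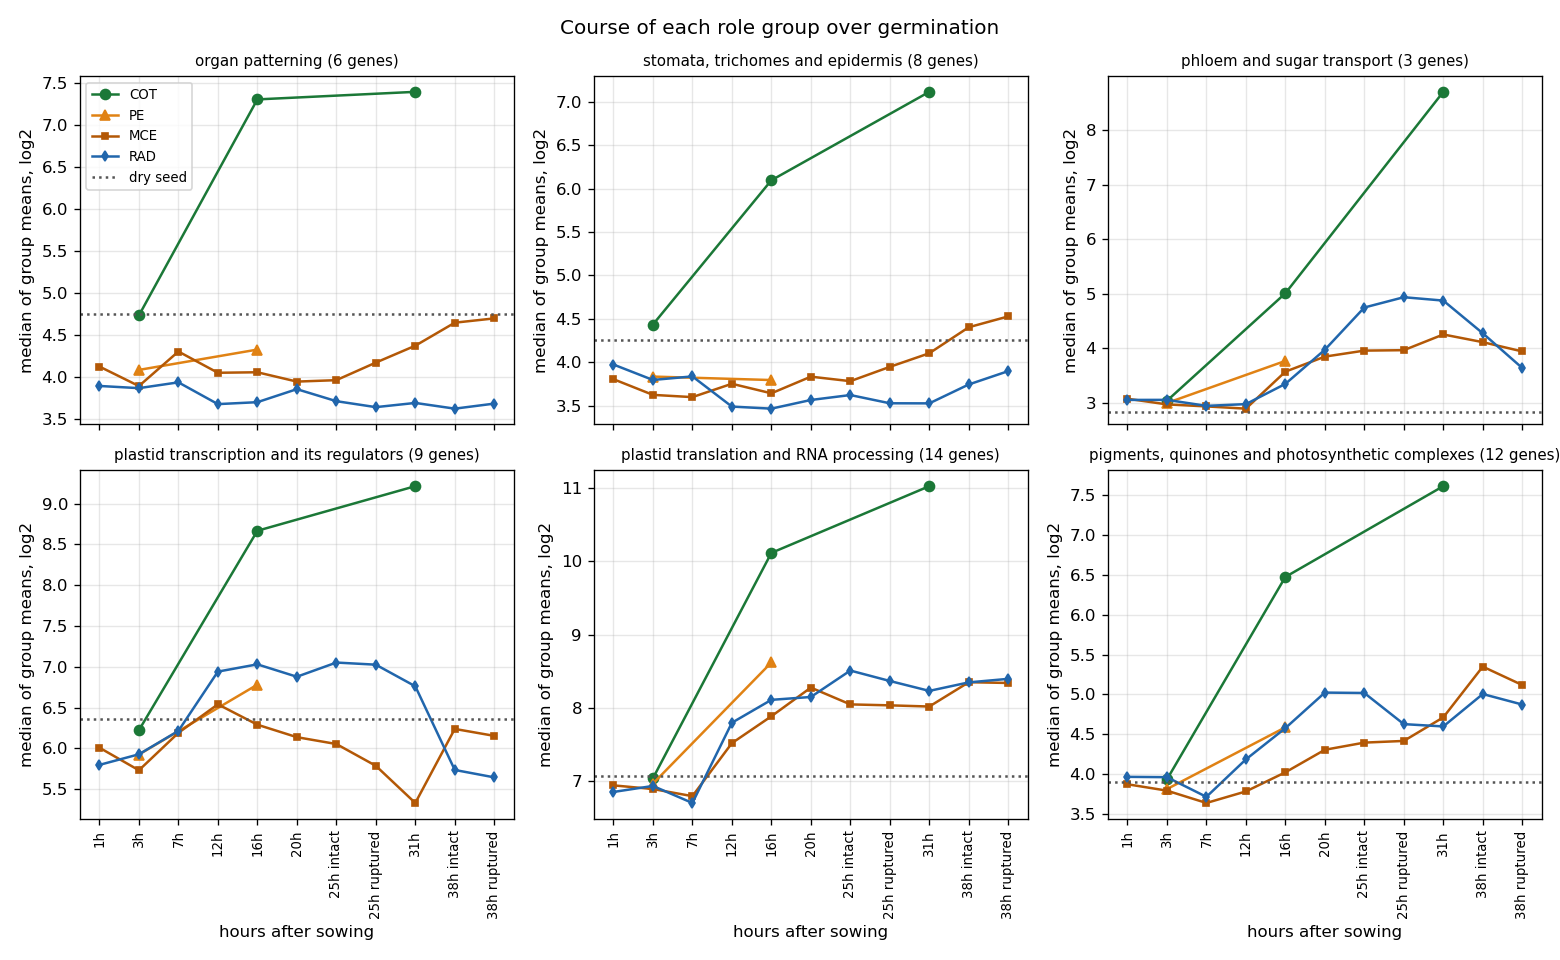
Median over the genes of a role (vertical axis, log2) in COT, PE, MCE and RAD along the stages (horizontal axis, in order and not to time scale), with dry seed as a dotted line, for 6 roles. Organ patterning is flat after 16 h in COT (7.30 and 7.39). The median of the 3 genes of phloem and sugar transport, which is the value of SEOR1, climbs most after 16 h (5.01 and 8.70).

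Machinery that reads the plastid genome, grouped with the nuclear regulators GNC and CIL, made up 9 of the 100. All 9 rose by 16 h, by 1.68 to 3.01. Their median was 6.22 at 3 h, 8.67 at 16 h and 9.21 at 31 h. The plastid-encoded RNA polymerase works in a large complex with nuclear-encoded proteins, among them PTAC3, PTAC12, FLN2 and PDE312 (PTAC10), and is steered by sigma factors such as SIG4. PTAC3 (AT3G04260) read 7.42, 7.11, 7.24 and 7.24 at 3 h, 9.13, 9.18, 9.29 and 9.35 at 16 h, and 10.51, 10.29, 10.36 and 10.19 at 31 h. The 3 times were apart on all arrays, and the rise by 16 h was 1.98 ± 0.11 (adjusted p = 7.09e-32). Its highest mean elsewhere was 7.84, in RAD at 25 h before testa rupture.

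PTAC12 (AT2G34640), also called HEMERA, rose most of this group, by 3.01 ± 0.15 to 9.03, against 6.01 at 3 h, and had 9.82 at 31 h. FLN2 (AT1G69200) rose by 2.44 ± 0.16, PTAC2 (AT1G74850) by 2.45 ± 0.13, PDE312 (AT3G48500) by 2.19 ± 0.15 and PTAC13 (AT3G09210) by 1.96 ± 0.15. SIG4 (AT5G13730) was the one most restricted to cotyledons. It read 3.50, 3.68, 3.49 and 3.14 at 3 h, 5.24, 5.90, 5.31 and 5.86 at 16 h, and 6.69, 6.33, 6.68 and 6.29 at 31 h, and it stayed at or below 3.77 in every other part and dry seed. It rose by 2.12 ± 0.15 (adjusted p = 1.43e-24) with no overlap.

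A pair of nuclear regulators in this group stopped at 16 h. GNC (AT5G56860), a GATA factor that promotes greening, rose by 1.68 ± 0.14 to 6.95, against 5.28 at 3 h, and had 6.87 at 31 h. CIL (AT4G25990), a relative of CIA2, which controls genes for chloroplast protein import and ribosomes, rose by 2.49 ± 0.17 to 8.73, against 6.24, and had 8.64 at 31 h. Both had their highest other mean in dry seed, at 4.65 and 6.05, and in RAD at 31 h they had 3.40 and 3.46. GLK1, a regulator of photosynthesis genes that is no member, had 6.14, 6.09 and 7.27 in COT at the 3 times, against 5.21 in RAD at 31 h. Of the 12 chloroplast and light regulators listed, 7 rose between 3 h and 16 h and none fell, beside 17.8% and 13.1% of all genes.

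Plastid translation and RNA processing was the largest named group, 14 genes, and the most abundant. Of these, 13 rose by 16 h, and their median was 7.04 at 3 h, 10.11 at 16 h and 11.02 at 31 h. They were also the genes most present elsewhere, with medians of 8.02 in MCE and 8.23 in RAD at 31 h. RPL21C (AT1G35680), a protein of the large plastid ribosomal subunit, had the highest level of the 100. It read 8.33, 8.65, 8.41 and 8.41 at 3 h, 11.15, 11.24, 10.96 and 11.15 at 16 h, and 11.60, 12.07, 11.99 and 11.99 at 31 h. The rise by 16 h was 2.67 ± 0.12 (adjusted p = 7.17e-37), and the highest other mean was 9.88, in RAD at 38 h after rupture.

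PSRP3/1 (AT1G68590), a ribosomal protein specific to plastids, rose most of the group. Its arrays read 6.31, 5.56, 6.46 and 6.51 at 3 h, 10.34, 10.57, 10.35 and 10.45 at 16 h, and 11.54, 11.36, 11.13 and 11.29 at 31 h. It rose by 4.22 ± 0.21 (adjusted p = 3.09e-34) with no overlap, while MCE at 38 h after rupture reached 9.26.

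The ribosomal proteins PRPL11 (AT1G32990), RPL4 (AT1G07320), EMB3105 (AT1G48350) and RPS9 (AT1G74970) rose by 2.92 ± 0.14, 2.25 ± 0.11, 2.08 ± 0.12 and 2.17 ± 0.14. EMB3113 (AT2G33800), a protein of the small subunit, rose by 1.22 ± 0.10. The exception was emb1473 (AT1G78630), also of the large subunit, which was the highest of the group at 3 h with 10.07 and differed by 0.85 ± 0.11 at 16 h, under the minimum. The elongation factor emb2726 (AT4G29060) rose by 3.27 ± 0.17 to 10.15, against 6.87, and APG3 (AT3G62910), a release factor that ends plastid translation, rose by 2.31 ± 0.13.

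RNA processing was represented by emb2746 (AT5G63420), the plastid ribonuclease J, which rose by 2.81 ± 0.14, and by EMB2453 (AT4G39620), a pentatricopeptide repeat protein, which rose by 2.76 ± 0.14. The splicing factor CFM2 (AT3G01370) rose by 2.04 ± 0.15 and the RNA-binding protein CP33 (AT3G52380) by 1.42 ± 0.11. Between 16 h and 31 h the 14 genes differed by 0.61 to 0.96, the narrowest range of any role.

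Pigments, quinones and assembly factors of photosynthetic complexes gave 12 genes, 11 of which rose by 16 h. Their median was 3.93 at 3 h, 6.47 at 16 h and 7.61 at 31 h. POR C (AT1G03630) is 1 of the light-dependent enzymes that make chlorophyllide. It read 4.03, 3.87, 4.14 and 3.40 at 3 h, 7.06, 7.16, 6.67 and 7.41 at 16 h, and 9.62, 9.73, 9.75 and 9.76 at 31 h. The times were fully apart, the rise by 16 h was 3.22 ± 0.17 (adjusted p = 2.67e-32), and 2.64 more separated 31 h from 16 h.

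The related enzymes followed other courses. PORB, no member, had 4.04 in COT at 3 h, 4.51 at 16 h and 8.88 at 31 h, and was higher in MCE, at 10.67 at 31 h. PORA lay between 3.58 and 3.93 in COT at all 3 times, below the floor. These genes were named after their values were seen.

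CHLI2 (AT5G45930), a subunit of the magnesium chelatase that opens the chlorophyll branch, read 3.35, 3.35, 3.59 and 3.64 at 3 h, 6.83, 7.08, 6.60 and 6.83 at 16 h, and 9.17, 9.38, 9.36 and 9.34 at 31 h. It rose by 3.35 ± 0.16 (adjusted p = 7.73e-35), with no overlap. Its paralog CHLI1 was higher in COT at 16 h and 31 h, with 4.17, 9.48 and 10.79 at the 3 times, but also had 9.15 in MCE at 31 h and is no member. Probes can respond to both copies of such a pair, and how the probes were assigned was not analysed here. GSA2 (AT3G48730), which forms the tetrapyrrole precursor aminolevulinate, rose by 2.79 ± 0.12 to 9.61, against 6.82, and had 10.92 at 31 h.

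The 17 chlorophyll genes of the list outside the 100 were counted apart from its 3 members. Of them 11 rose between 3 h and 16 h and none fell, beside 17.8% and 13.1% of all genes, with a median difference of 1.99. Between 16 h and 31 h 9 were past the threshold upward, beside 6.99%. Against RAD at 31 h 16 of the 17 were past it upward, beside 8.3%. In 13 the COT mean at 31 h was above every other part and dry seed, beside 7.66% of all genes.

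Factors of the chloroplast NADH dehydrogenase-like complex, which cycles electrons around photosystem I, split. CRR7 (AT5G39210), an assembly factor, rose by 3.11 ± 0.12 to 6.54, against 3.43 at 3 h, and CRR28 (AT1G59720), which edits its plastid transcripts, rose by 1.79 ± 0.12 to 6.19, against 4.39. CRR1 (AT5G52100), needed to assemble its stromal arm, read 3.88, 3.58, 3.83 and 3.79 at 3 h, 3.81, 3.93, 3.53 and 3.76 at 16 h, and 6.42, 6.14, 6.86 and 7.08 at 31 h. Its arrays of 16 h and 3 h overlap, with a difference of -0.01 ± 0.16 (adjusted p = 0.954), and those of 31 h lie above both.

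ABC4 (AT1G60600) and AAE14 (AT1G30520), enzymes of phylloquinone synthesis, rose by 2.88 ± 0.20 and 1.23 ± 0.15, and the call of AAE14 was lost by a small margin (0.990) after the repeated quantile normalization. CPSRP54 (AT5G03940), which guides antenna proteins to the thylakoid, rose by 3.65 ± 0.20. HY2 (AT3G09150), which makes the phytochrome chromophore, rose by 1.72 ± 0.15 and Cpn60beta4 (AT1G26230), a subunit of the plastid chaperonin, by 1.98 ± 0.20. PPD5 (AT5G11450), a lumen protein of the PsbP family, rose by 1.88 ± 0.12.

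Genes whose products fill the thylakoid and fix carbon differed between cotyledons and axis too. None of 12 antenna genes, 23 photosystem subunits and 15 Calvin cycle genes measured was among the 100, and since the 100 are 0.47% of all genes, nothing is read from that count. At 31 h 10 of the 12, 18 of the 23 and 12 of the 15 were called higher in COT than in RAD, and none lower, beside 8.3% and 7.14% of all genes. The antenna gene LHCB4.1 had 8.78 in COT and 5.21 in RAD at 31 h, a difference of 3.58 ± 0.19, and the photosystem II gene PSBR had 9.30 and 4.63, a difference of 4.67 ± 0.19.

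In most of them the endosperm at the seed's ends at 38 h, when cotyledons were not sampled, was the highest part outside COT. The highest group outside COT was MCE at 38 h for all 12 antenna genes, all 23 photosystem genes and 12 of the 15 Calvin cycle genes, beside 11.7% of all genes, with PSBR at 12.10 and LHCB4.1 at 10.43 there after rupture. Compared at 31 h in both parts, the COT mean was above the MCE mean in 3 of the 12, 7 of the 23 and 8 of the 15, beside 51.3% of all genes. Outside the 100, this held for 13 of the 17 chlorophyll genes and all 13 stomatal genes. The MCE arrays at 31 h were widely spread. They averaged 6.49 to 7.91 for antenna, 6.83 to 8.55 for photosystem and 7.6 to 8.86 for Calvin cycle genes. The COT arrays at 31 h averaged 5.97 to 6.09, 6.79 to 6.98 and 8.62 to 8.74. For photosystem and Calvin cycle genes these ranges overlap, so nothing is read from their counts against MCE. For antenna genes they do not overlap. In the 3 lists 1, 2 and 1 genes had a COT mean at 31 h above every other part, near the 7.66% of all genes.

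**Figure D5:**
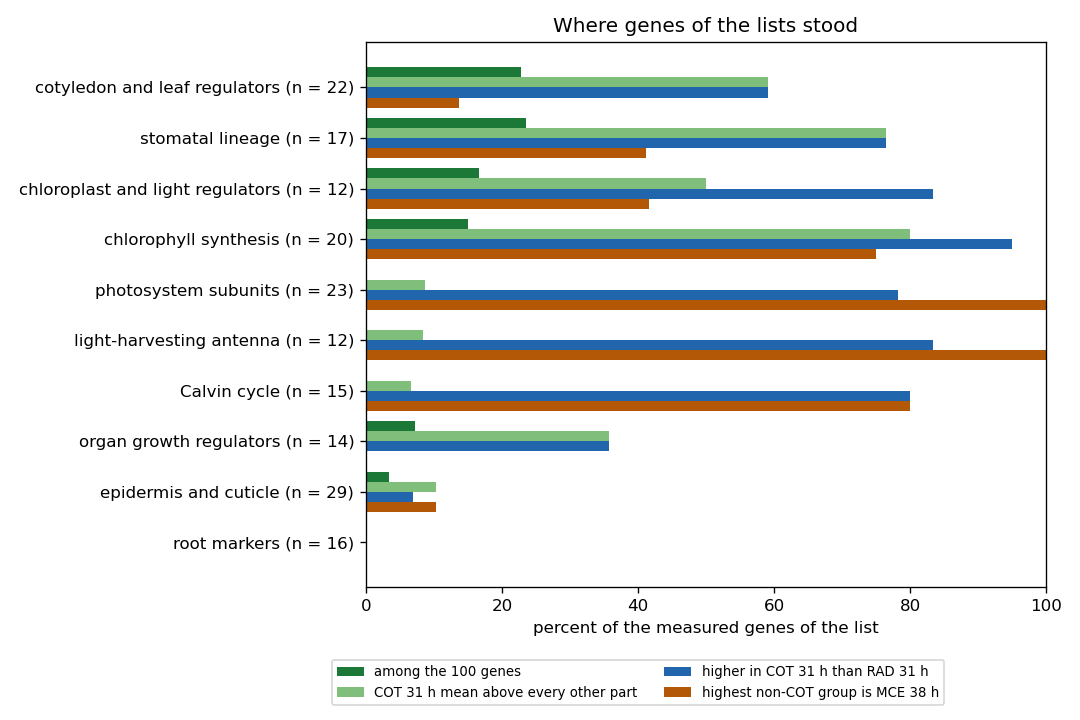
Percent of the measured genes of 10 lists (n beside each name) that are among the 100, have a COT mean at 31 h above every other part and dry seed, were called higher in COT than RAD at 31 h, or have their highest group outside COT in MCE at 38 h. Photosystem, antenna and Calvin cycle genes have long blue and brown bars and no dark green bar, and the lists with members include them here.

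The choice of genes moved with the stages compared. When both 38 h stages were left out of the rule, 69 of the 100 genes remained, and the 31 that entered held no antenna, photosystem or Calvin cycle gene of the lists. They included GDCH of photorespiration (8.55 in COT, 5.02 in MCE, both at 31 h), the chlorophyll genes PCB2 and G4 (CHLG), the ferredoxin reductase FNR2 and TMM.

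The other 13 annotated genes were varied, and 9 rose by 16 h. LOG1 (AT2G28305), an enzyme that releases active cytokinin, was among the latest. It read 3.09, 3.49, 3.23 and 3.62 at 3 h, 3.65, 4.26, 3.63 and 4.16 at 16 h, and 7.94, 8.39, 7.95 and 8.23 at 31 h. Every array of 16 h lay above those of 3 h, but the difference of 0.57 ± 0.21 was under the minimum (adjusted p = 0.0127), whereas 4.2 separated 31 h from 16 h.

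A calmodulin-binding IQ domain protein, iqd21 (AT3G49260), ranked 5 by score, with 3.25, 4.17 and 7.29 at the 3 times and at most 3.86 elsewhere. Its difference of 0.92 ± 0.11 by 16 h was just under the minimum, and a repeated quantile normalization placed it above (1.06). FXG1 (AT1G67830), a fucosidase of the cell wall, was alike, with 0.94 ± 0.14, which passed after that normalization (1.06) and without COT 16 h replicate 2 (1.02). DFR (AT5G42800), an enzyme of anthocyanin synthesis, had 3.12, 3.48 and 5.52, with 0.36 ± 0.17 by 16 h (adjusted p = 0.0524).

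Early members of this group included MAP1C (AT1G13270), an organellar methionine aminopeptidase, which rose by 3.68 ± 0.13 to 9.93, against 6.25, and LSMT-L (AT1G14030), a methyltransferase acting on chloroplast enzymes, which rose by 3.74 ± 0.17 to 7.80, against 4.06. The zinc finger homeodomain gene HB21 (AT2G02540) rose by 2.02 ± 0.14, the MADS box gene AGL87 (AT1G22590) by 1.57 ± 0.16 and RPB5D (AT2G41340), of an RNA polymerase subunit family, by 2.34 ± 0.14. PMI1 (AT1G42550), which acts in chloroplast movement, was at 6.70 at 3 h and rose by 1.33 ± 0.18. SKL2 (AT2G35500), a shikimate kinase-like protein, rose by 2.53 ± 0.15, and the plastid thioredoxins ty2 (AT1G43560) and WCRKC1 (AT5G06690) rose by 1.98 ± 0.15 and 1.83 ± 0.12.

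The 35 genes known here only by locus held both extremes of timing. AT1G15260, ranked 4 by score, read 3.99, 4.3, 3.71 and 3.65 at 3 h, 8.95, 8.84, 8.92 and 8.94 at 16 h, and 7.72, 7.41, 7.96 and 7.96 at 31 h. It rose by 5.0 ± 0.15 by 16 h (adjusted p = 8.94e-51), peaked there with no overlap, and was the 1 gene past the threshold downward after it, at -1.15. AT4G17810 had the same shape at lower height, with 4.80, 7.82 and 7.09. AT1G49975, ranked 3 by score, read 3.47, 2.93, 3.36 and 3.39 at 3 h, 6.70, 6.71, 6.40 and 6.81 at 16 h, and 7.78, 8.16, 8.01 and 8.23 at 31 h. Its 3 times were apart on all arrays, and it rose by 3.37 ± 0.14 by 16 h. AT5G55220, ranked 16, rose by 2.57 ± 0.17 to 8.72, against 6.15 at 3 h, and had 9.75 at 31 h.

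At the other extreme, AT2G46630 read 4.14, 4.42, 3.44 and 3.40 at 3 h, 3.96, 4.09, 4.28 and 4.03 at 16 h, and 8.25, 8.62, 8.29 and 7.88 at 31 h. Its arrays of 16 h and 3 h overlap (0.24 ± 0.17, adjusted p = 0.214), and it was at 5.99 in RAD at 31 h. AT5G08460 and AT4G01130 also had differences near 0 by 16 h, -0.08 ± 0.13 (adjusted p = 0.619) and 0.08 ± 0.13 (adjusted p = 0.582), and had 5.92 and 5.20 at 31 h. AT2G37660 rose by 4.86 ± 0.16 to 9.92, against 5.06, and had 11.22 at 31 h.

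The cut at 100 genes falls in a continuous range. Just inside it were ty2 with a score of 1.916, APG3 with 1.912, DFR with 1.910, AT3G29185 with 1.908 and AT3G48420 with 1.904. Just outside were AT3G61310 with 1.895, AT5G44680 with 1.890, EMB2247 and AT3G08920 with 1.885 each, and PCB2, of chlorophyll synthesis, with 1.873.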

How the data were processed

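Total RNA, 100 ng per sample, was turned into biotin-labelled cRNA with an Affymetrix in vitro transcription kit, per the labels' protocols. The deposited table holds log2 expression values, 1 per locus and array, made by the authors with RMA and the package affy, per the submitters' processing notes; RMA corrects background, normalizes arrays together and summarises probes, and log2 values carry no read depth. No position is printed, since the build, like the probe assignment and the tool versions, is not given in the sources used here. Array medians lay between 4.67 and 5.22, and the number of arrays limits the precision.

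Arrays were grouped by title. For 3 MCE arrays the source name gave another time than the title, and 6 arrays were marked as redone; all were kept. Separate seed batches are not stated, so a p-value measures only the spread between arrays, which may be technical. All 111 arrays and 21313 rows entered 1 limma fit (limma 3.58.1, R 4.3.3) with a mean per group, 83 residual degrees of freedom and a median moderated SD of 0.193. Tests were two-sided, adjusted by Benjamini-Hochberg over all rows, and called at 0.05 with a difference of at least 1. On data simulated for COT at 16 h minus COT at 3 h over 21313 genes, 89% of changes of 1.2 and 100% of changes of 2 were recovered, with 1 false call. The floor of dim genes, 4.03, is the value that the highest group mean of 25% of rows did not reach; all 100 genes passed it, as the rule favours.

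The 100 genes, the gene lists and the comparisons were chosen with earlier results of these data known. Named first were the 20 genes of highest score, list members, the largest changes between 3 h and 16 h and genes with a known role, and, outside the 100, up to 4 genes per list with large differences, except where stated. RefSeq symbols were found for 65 of the 100 loci. Replicate numbers did not pair the samples: deviations of same-numbered COT arrays at 16 h and 3 h correlated at -0.107 to 0.106. The alternatives tried were dim-gene filtering, repeated quantile normalization, a trimmed mean shift (30% at each end), prior trend, array weights, replicate block, no fold minimum, fewer groups, and leaving out arrays.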

Additional observations from a re-analysis of the deposited data

Results flagged for a closer look

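Among the 65 genes with a symbol, 195 sets of 4 COT arrays were searched for 1 array far from the other 3, by its gap to the nearest array as a share of their range (Dixon's 95% limit), and 18 were found. Chance gives about 1 in 20. At 31 h, replicate 1 was the low array for CIL at 8.53 (others 8.66 to 8.69), RPL4 at 10.92 (11.23 to 11.28), RPS9 at 9.24 (9.93 to 9.98), CHLI2 at 9.17 (9.34 to 9.38), HY2 at 5.67 (6.63 to 6.71) and emb2746 at 7.75 (8.11 to 8.17). RPB5D stood high at 6.89 in replicate 2 (others 6.57 to 6.59) and ANT at 5.83 in replicate 3 (5.76 to 5.77).

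At 16 h, replicate 3 was low for SUC1 at 7.57 (others 8.18 to 8.27) and RPL4 at 10.17 (10.48 to 10.51) and high for CIL at 8.91 (8.65 to 8.69). SKL2 was high in replicate 2 at 8.28 (8.03 to 8.06). At 3 h, replicate 3 was high for ANT at 3.54 (others 3.23 to 3.26) and low for PTAC13 at 5.88 (6.31 to 6.39), CP33 at 7.73 (7.94 to 7.97) and CPSRP54 at 4.18 (5.53 to 5.75). Replicate 4 was high for PRPL11 at 7.42 (7.04 to 7.09) and low for PMI1 at 6.28 (6.78 to 6.88). Without each COT array in turn these genes stayed called higher at 16 h than at 3 h, for example CPSRP54 by 3.29 to 3.82.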

How the results depend on the processing

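The count of the 100 genes called changed between COT at 16 h and 3 h, 86, lay between 81 (trimmed mean shift) and 94 (no fold minimum) over the alternatives and between 85 and 87 without each array in turn. With the replicate number as a block it was 86, with 6575 of all genes called, as without it, and the block changed no call of a named gene. Over all genes, 6575 were called, and 13863 with no fold minimum, as that setting counts smaller differences. Of the 100 genes, 69 were chosen again without both 38 h stages, 90 after the trimmed mean shift, 92 with group medians, 96 after quantile normalization, 99 without the redone arrays, 99 without the arrays of differing labels, and 90 to 97 without 1 COT array of 31 h. Calls of single genes that changed at the minimum of 1 are given beside those genes, and no called difference changed sign; the differences of CRR1 and SEOa, not called, lay on both sides of 0, at -0.22 to 0.11 and -0.18 to 0.16 over all alternatives and -0.07 to 0.06 and -0.07 to 0.10 without each array in turn. The list of organ growth regulators had 2 genes lower in COT than RAD at 31 h, and 1 after the trimmed mean shift and without COT 31 h replicate 2, RAD 31 h replicate 2 or RAD 31 h replicate 4; the cause was not tested. The values are array intensities on a log2 scale, and genes under the floor of 4.03, which held 34 of the 100 in COT at 3 h, have compressed differences.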

Other observations

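Lists with no or few genes among the 100 showed other patterns in cotyledons. Of 16 glucosinolate genes measured, 8 were called lower and none higher in COT than in RAD at 31 h, with CYP79B2, which makes the precursor of indole glucosinolates, at 4.41 in COT and 9.40 in RAD. Over all genes 7.14% were called lower and 8.3% higher. Of 14 organ growth regulators, 7 rose in COT between 3 h and 16 h, beside 17.8% of all genes, and 6 of the 13 outside the 100 did. Between 16 h and 31 h 2 were called higher and 5 lower, beside 6.99% and 4.23% of all genes. Among the 14, GRF5, a growth-regulating factor, had 6.03 at 3 h, 9.44 at 16 h and 7.64 at 31 h, while the cyclin CYCD3;1 had 3.16, 3.49 and 6.41.

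Single epidermis and cuticle genes outside the 100 took different courses. FDH, an enzyme of long-chain lipids in the epidermis, had 4.57 at 3 h, 10.80 at 16 h and 10.84 at 31 h in COT, and 10.47 in RAD at 31 h. CER1, of wax synthesis, had 3.19, 3.10 and 8.12 in COT at the 3 times, and 7.89 in RAD at 31 h. CYP86A4, which hydroxylates cutin monomers, was lower in COT than in RAD at 31 h, at 5.14 against 9.82.

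Of 6 photorespiration genes, 4 were called higher in COT than RAD at 31 h and none lower, beside 8.3% and 7.14% of all genes. Of 12 genes of storage oil breakdown 1 was higher, and of 9 clock genes 2, with none lower in either list, and nothing is read from these small counts.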
